A study of Avicennia officinalis with 4 samples.

Results

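In roots of Avicennia officinalis, a salt-tolerant mangrove tree, 7 unigenes were examined: 5 named as MYB transcription factors, 1 as a bZIP transcription factor and 1 as the abscisic acid (ABA) receptor PYL8. They are 7 of the 168308 unigenes (transcripts assembled from the reads without a genome) in the deposited table. One group of seedlings received 500 mM NaCl and its roots were taken after 24 h, and the other group was the control. The plants were 2 months old in both groups, came from wild propagules, were raised without NaCl and were watered with diluted Hoagland's solution in sand. Each group has 2 mRNA-sequencing libraries, numbered 1 and 2 in the labels, and each library was made from the roots of 3 plants. RNA of whole roots was measured, so fewer cells of a type and less RNA per cell cannot be told apart.

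The members were chosen by their listing as lower upon salt treatment in the study's tables, which were drawn from these same 4 libraries. Where those tables give RPKM (reads per kilobase of unigene and per 1000000 counted reads), it is the sum over both libraries of a group for the MYB and bZIP members that have reads in the deposited table. PYL8 comes from a list that also required sequence similarity to published salt data of other plants. The paper further measured a selection of changed unigenes by quantitative PCR and reports general agreement for most. The text available here does not say whether these members were among them. The methods name a log2 ratio of 2 in size, together with limits on p and on the false discovery rate, as the threshold of a changed unigene. On summed RPKM, the log2 ratio of salt to control was -2.08 for the bZIP unigene, the closest to this threshold, and -3.04 for the MYB unigene Ug37122 (Ug and a number are short for a unigene), the farthest among members with reads in both groups. The salt-control difference of the members is therefore given as a description. Counting intervals of ratios compare single libraries, not conditions. From the fit across all unigenes, log2 fold changes and standard errors of members are given as a description only. No test of a member is taken from it. The table has no gene names, so the names are those of the paper, which come from sequence similarity to other plants. Root markers could not be looked up in the table, and the labelled tissue was not checked.

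ABA is the hormone of drought and salt responses. Receptors of the PYR/PYL family bind it and then hold back PP2C phosphatases, which frees SnRK2 kinases to phosphorylate bZIP factors at the promoters of ABA-responsive genes. MYB factors are a large family of DNA-binding proteins, of which some act in ABA responses and others in cell fate or secondary metabolism. In Arabidopsis, PYL8 promotes the growth of lateral roots and binds the factor MYB77. The sources used here do not say which branch of the MYB or bZIP family these unigenes belong to, and PP2C and SnRK2 unigenes were not analysed here, as no unigene number is given for them.

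The counted reads were 21.8 M and 17.1 M in salt replicates 1 and 2 and 22.4 M and 17.8 M in control replicates 1 and 2. A count of 0 allows up to 3 reads, or between 0.134 and 0.175 CPM (reads per 1000000 counted reads). Libraries with the same number were more alike than libraries of the same condition. The Pearson correlation of log2(CPM + 1) across unigenes was 0.961 between salt and control in replicate 1 and 0.951 in replicate 2, against 0.910 between the salt libraries and 0.871 between the control libraries. Unigenes are not independent replicates, and the sources used here do not say what sets replicates 1 and 2 apart. For a single unigene, the smallest two-sided p of an exact permutation test with 2 libraries per group is 0.333.

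In all 6 members with reads, control replicate 2 was the highest of the 4 libraries. This library held 74.7% of the 1213 reads of the members but 22.5% of all counted reads. Of its 906 member reads, 386 were of the bZIP unigene and 338 of Ug86066. A high share in the control libraries follows from the choice of members, so the 22.5% is no neutral baseline. Salt replicates 1 and 2 held 4.53% and 12.1% of the members' reads, and control replicate 1 held 8.66%. The seventh member, the MYB unigene Unigene3535_All (4488 bp), had 0 reads in all 4 libraries. The paper lists this number with reads in both groups, so the number may stand for another unigene there, and no level of this MYB factor is given here. It is left out of the counts below.

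The receptor PYL8 is Unigene59747_All (1088 bp). It had 2 and 4 reads in salt replicates 1 and 2, against 4 and 28 reads in control replicates 1 and 2. Its RPKM was 0.0844 and 0.215 in the salt-treated roots, against 0.164 and 1.45 in the control. Control replicate 2 stood apart, and salt replicate 2 was above control replicate 1, so that the groups overlapped. The mean was 0.150 ± 0.0921 RPKM in the salt-treated roots and 0.805 ± 0.906 RPKM in the control (SD, n = 2 libraries each). In replicate 1, the salt library had 0.516 times the CPM of the control library, with a 95% interval of 0.0466 to 3.60 (exact binomial, counting error only). In replicate 2 it was 0.149 times, with an interval of 0.0379 to 0.425. PYL8 was thus detected with few reads in 3 of the libraries, and only the ratio in replicate 2 lay below 1 beyond counting error.

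The bZIP factor is Unigene59417_All (1472 bp). Proteins of this family bind DNA as dimers through a basic region and a leucine zipper. It had 20 and 81 reads in salt replicates 1 and 2, against 51 and 386 reads in control replicates 1 and 2. Its RPKM was 0.624 and 3.21 in the salt-treated roots, against 1.54 and 14.7 in the control. Each salt library was below the control library of its number, but salt replicate 2 was above control replicate 1. The ratio of salt to control was 0.404 (interval 0.228 to 0.690) in replicate 1 and 0.218 (interval 0.170 to 0.278) in replicate 2. Among the members, it was the only one whose ratio lay below 1 beyond counting error within both replicate numbers. Depth limits this comparison, as replicate 1 had 6 and 10 reads in salt and control for Ug86066 and 2 and 4 for PYL8. It had 5 and 2 for Ug37122 and 0 and 2 for Ug155113. Nothing is read from it, since the members were chosen on this difference.

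The MYB unigene with the most reads was Unigene86066_All (1513 bp). It had 6 and 54 reads in salt replicates 1 and 2, against 10 and 338 reads in control replicates 1 and 2. Its RPKM was 0.182 and 2.08 in the salt-treated roots, against 0.294 and 12.5 in the control. Most of its reads came from the replicate 2 libraries in both conditions. The ratio of salt to control was 0.619 (interval 0.185 to 1.88) in replicate 1 and 0.166 (interval 0.122 to 0.222) in replicate 2.

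Unigene121384_All (1750 bp), also a MYB factor, had 22 and 8 reads in salt replicates 1 and 2, against 36 and 94 reads in control replicates 1 and 2. Its RPKM was 0.577 and 0.267 in the salt-treated roots, against 0.916 and 3.02 in the control. Both salt libraries were below both control libraries. Here salt replicate 2 was below salt replicate 1, as in Ug37122 and unlike in the bZIP unigene and in Ug86066. The ratio of salt replicate 2 to salt replicate 1 was 0.462 (interval 0.178 to 1.08), which is not beyond counting error. The ratio of salt to control was 0.630 (interval 0.353 to 1.10) in replicate 1 and 0.0885 (interval 0.0371 to 0.182) in replicate 2, and these intervals did not overlap.

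The MYB unigene Unigene37122_All (540 bp) had 5 and 0 reads in salt replicates 1 and 2, against 2 and 32 reads in control replicates 1 and 2. This is 0.425 and 0 RPKM in the salt-treated roots, against 0.165 and 3.33 RPKM in the control. It was the only member with a higher value in salt than in control within a replicate number, and this rests on 5 against 2 reads (ratio 2.58, interval 0.422 to 27.1). In replicate 2, the control library was 10.3-fold higher than the salt library set at the limit of 3 reads, and the 95% interval of the ratio had its lower end at 7.87-fold.

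The MYB unigene Unigene155113_All (1119 bp) had 0 and 0 reads in the salt libraries, against 2 and 28 reads in control replicates 1 and 2, which is 0.0796 and 1.41 RPKM. In replicate 2, the control library was 8.98-fold higher than the salt library set at the limit of 3 reads, and the 95% interval of the ratio had its lower end at 6.83-fold. In replicate 1, 2 reads are within what a count of 0 allows, so no difference was detectable there at this depth.

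**Figure D1:**
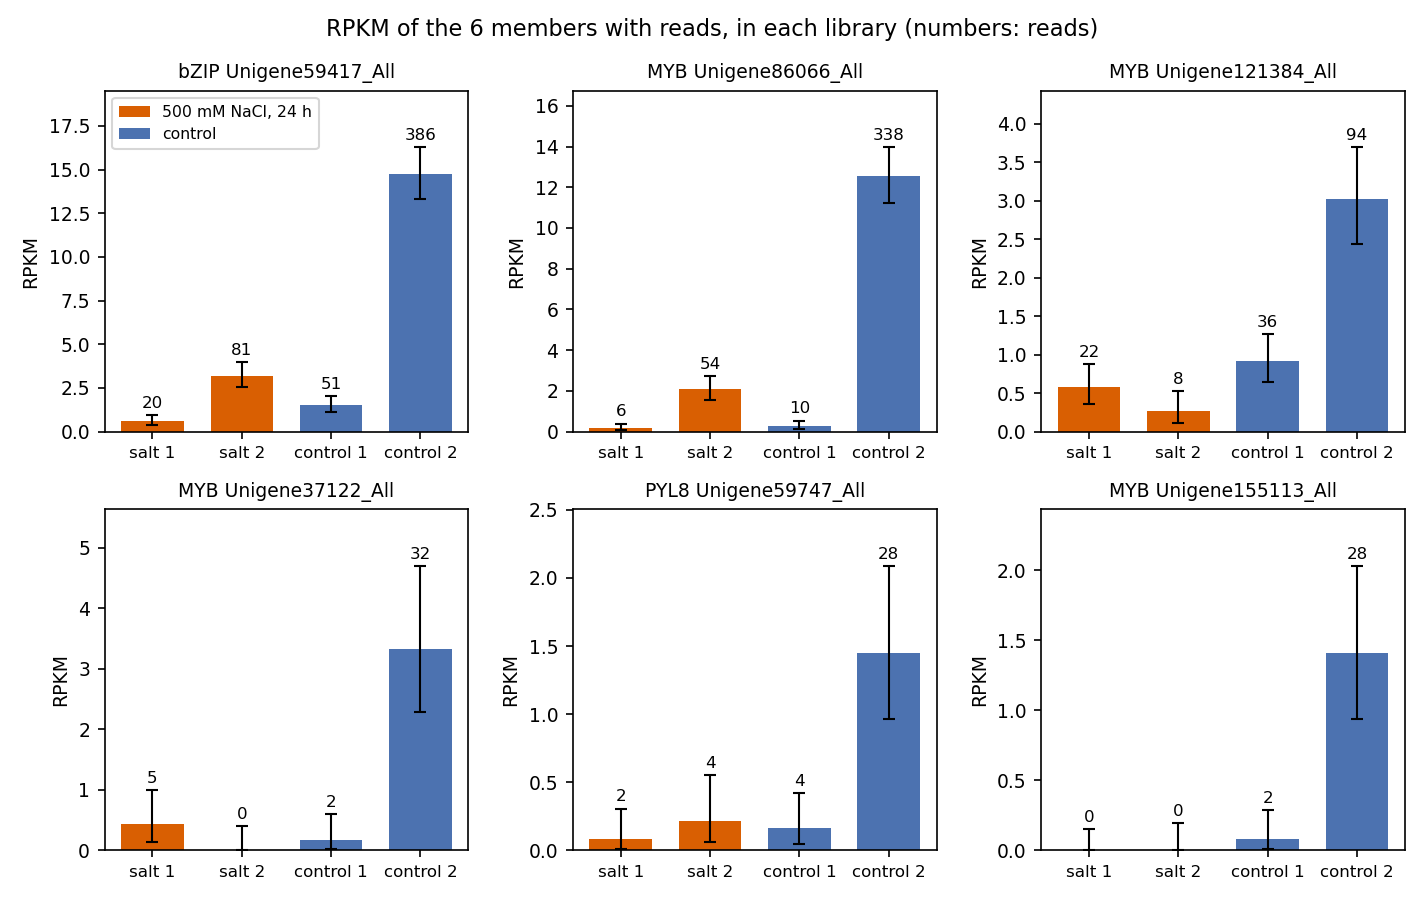
RPKM (vertical axes, each with its own scale from 0) of the 6 members with reads in the salt libraries (orange) and the control libraries (blue), with the number of reads above each bar. Bars are single libraries, the lines are 95% Poisson intervals for counting error, and in every panel control replicate 2 is highest, with 386 reads for the bZIP unigene and 28 for PYL8.

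By RPKM averaged over the 4 libraries, the bZIP unigene was highest (5.03), followed by the MYB unigenes Ug86066 (3.78), Ug121384 (1.19) and Ug37122 (0.980), PYL8 (0.477) and the MYB unigene Ug155113 (0.371). The order was the same by the median over the libraries. It was not the same within each library. In control replicate 1, Ug121384 at 0.916 RPKM was above Ug86066 at 0.294 RPKM, while in control replicate 2 Ug86066 at 12.5 RPKM was above Ug121384 at 3.02 RPKM. Neighbours in this order differed by less than the spread between libraries. The RPKM of the 5 MYB unigenes together was 1.18 and 2.35 in salt replicates 1 and 2, against 1.46 and 20.3 in control replicates 1 and 2. Of the sum in control replicate 2, 61.8% came from Ug86066. In that library, the members lay between percentile 53.9 (Ug155113) and percentile 93.2 (Ug59417) of all unigenes with reads. In salt replicate 1, the 5 members with reads lay between percentile 5.47 (PYL8) and percentile 37.4 (Ug59417).

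Set side by side, the salt library was below the control library of its number in both replicates for 5 of the 6 members, all but Ug37122. Among all unigenes with 20 or more reads, this share was 19.9%. Both salt libraries lay below both control libraries for 2 of the 6, Ug121384 and Ug155113, and for 7.33% of these unigenes. The interval of the ratio lay below 1 for 6 of 6 members in replicate 2, and for 18.3% of the unigenes with 20 or more reads. In replicate 1 it lay below 1 for 1 of 6 members and for 13.5% of these unigenes. Nothing is read from these counts, since the members were chosen on this difference. The depth behind these ratios differed. The members had 147 against 906 reads in replicate 2 and 55 against 105 reads in replicate 1.

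**Figure D2:**
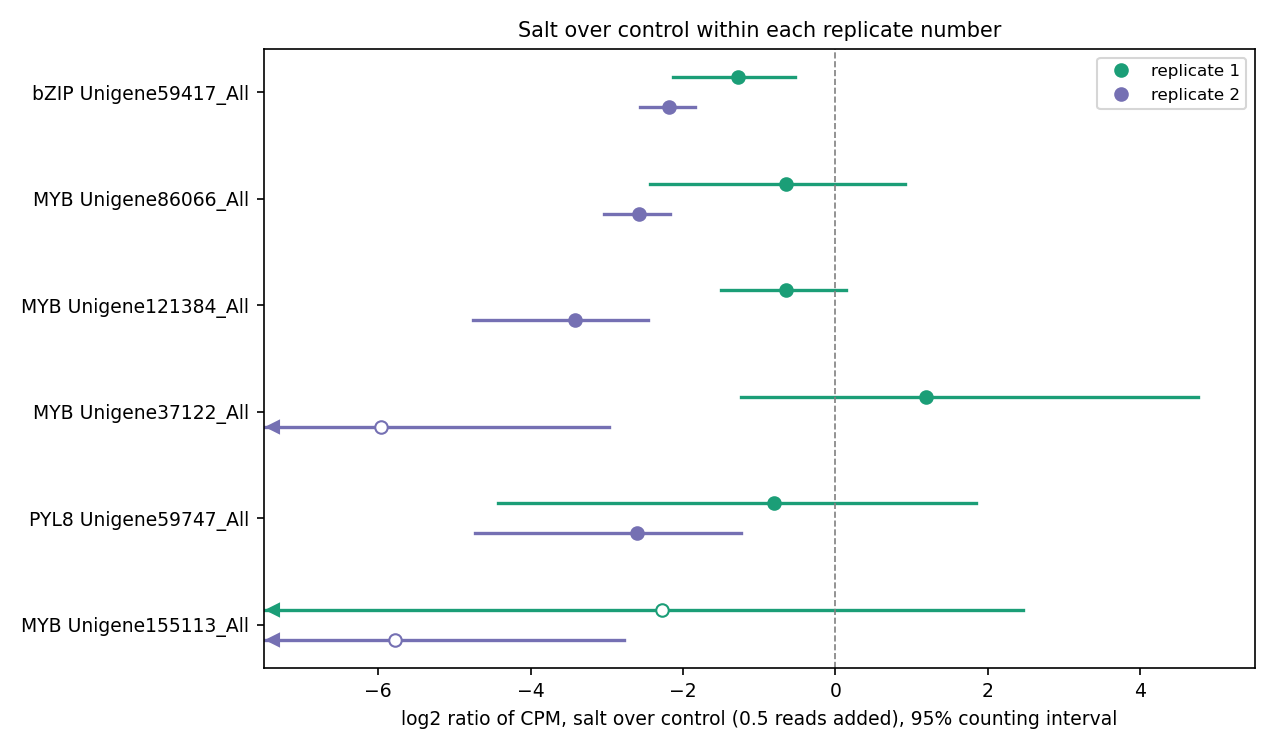
Log2 ratio of CPM, salt over control (horizontal axis, 0.5 reads added), for each member in replicate 1 (green) and replicate 2 (violet), with 95% counting intervals. Open circles are ratios with 0 salt reads, whose intervals have no lower end (arrows), and all 6 intervals of replicate 2 lie left of 0, against 1 of 6 for replicate 1.

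The control libraries also differed from each other, which is likewise a description, as the choice of members used both. Control replicate 2 was above control replicate 1 in all 6 members beyond counting error, as in 26% of the unigenes with 20 or more reads. The ratio of replicate 2 to replicate 1 in the control was 42.6 for Ug86066 (interval 22.9 to 89.7), 9.54 for the bZIP unigene (interval 7.11 to 13.0) and 8.83 for PYL8 (interval 3.09 to 34.6). It was 3.29 for Ug121384 (interval 2.22 to 4.98), the smallest among the members. In the salt-treated roots, 2 of the 5 members with reads had a ratio above 1 beyond counting error, against 24.3% of the unigenes with 20 or more reads. These were Ug86066 with 11.4 (interval 4.93 to 32.5) and the bZIP unigene with 5.15 (interval 3.13 to 8.87). Ug121384 had a ratio of 0.462 (interval 0.178 to 1.08) and PYL8 of 2.54 (interval 0.364 to 28.1). Control replicate 2 also enters the ratio of control to salt within replicate 2. That ratio was smaller than the one between the controls for Ug86066 (6.02, interval 4.51 to 8.18) and the bZIP unigene (4.58, interval 3.60 to 5.90). It was larger for Ug121384 (11.3, interval 5.51 to 26.9). For PYL8 it was 6.73 with an interval of 2.36 to 26.4. Both ratios share control replicate 2, so their intervals are not independent. Side by side, they compare salt replicate 2 with control replicate 1, which differ in condition and in replicate number. No salt effect can be read from this.

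**Figure D3:**
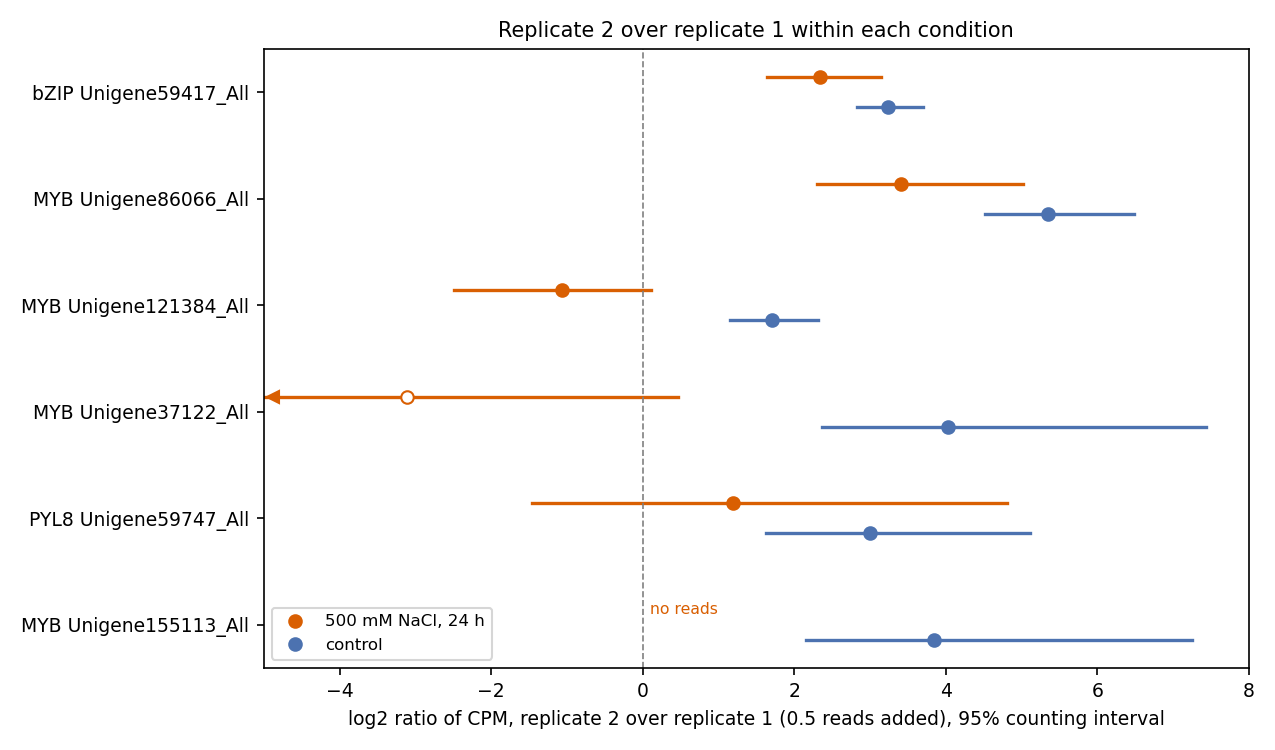
Log2 ratio of CPM, replicate 2 over replicate 1 (horizontal axis, 0.5 reads added), within the salt-treated roots (orange) and within the control (blue), with 95% counting intervals. All 6 control intervals lie right of 0, the salt intervals do so for the bZIP unigene and Ug86066, the open circle is a ratio with 0 reads in salt replicate 2, and Ug155113 had no reads in salt.

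A share of 90% or more of the control CPM in a single control library was found for 4 of the 6 members and for 13.4% of the unigenes with 20 or more reads. In these 4, it was control replicate 2, with 97.7% for Ug86066, 95.3% for Ug37122, 94.6% for Ug155113 and 90.5% for the bZIP unigene. PYL8 was just below this limit with 89.8%, and Ug121384 had 76.7%. The highest CPM was in control replicate 2 for 6 of 6 members and for 25.2% of the unigenes with 20 or more reads. As a further description, 4992 unigenes with 20 or more reads had a summed RPKM that was 4-fold or more lower in salt. For 88.7% of these, a single control library held at least 90% of the control CPM, as it did for 4 of the members. Their highest library was control replicate 1 for 78.5% and control replicate 2 for 21.5%. Lists were compared in the same way. Among the 21 other transcription factors listed as lower that had 20 or more reads, control replicate 2 was the highest library for 11 and control replicate 1 for 10. The defense and stress class, to which PYL8 belongs, has 14 other unigenes listed as lower. Among the 13 of these with 20 or more reads, these numbers were 5 and 8. Whether the members differ from these lists was not tested.

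When the salt libraries were set against control replicate 1 alone, an alternative chosen after seeing the data, the mean RPKM was lower in salt for 3 of the 6 members in place of 6. It was lower for Ug121384, for Ug155113, which had no reads in salt, and for PYL8, whose mean in salt was then 0.913 times the RPKM of control replicate 1. For Ug86066, the mean of the salt libraries was 3.85 times the RPKM of control replicate 1, for Ug37122 1.29 times and for the bZIP unigene 1.24 times. In each of these 3, the highest salt library alone was above control replicate 1. It was salt replicate 2, which has the other replicate number, for Ug86066 and the bZIP unigene, and salt replicate 1 for Ug37122. In CPM, salt replicate 1 was 0.619 times control replicate 1 for Ug86066 and 0.404 times for the bZIP unigene, but 2.58 times for Ug37122. What part the replicate number has in these ratios was not tested. Leaving out any of the other libraries left the mean lower in salt in 6 of 6. As control replicate 2 was the highest library in all 6, leaving it out could only shrink or reverse the difference. No share over all unigenes is given beside the count of 3, and nothing is read from it.

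**Figure D4:**
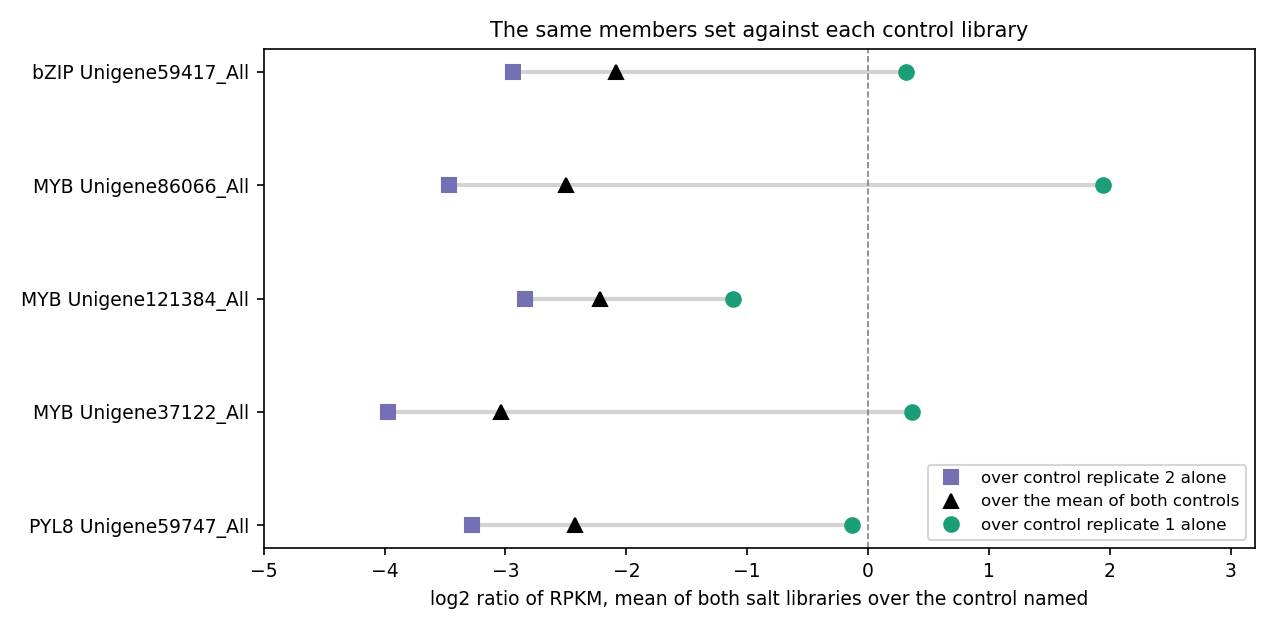
Log2 ratio of RPKM of the mean of both salt libraries over control replicate 2 (squares), over the mean of both control libraries (triangles) and over control replicate 1 (circles). Both salt libraries enter each mean, so circles and squares also set libraries of different replicate numbers against each other. Ug155113 has no reads in salt and is not shown, and the circles of the bZIP unigene, Ug86066 and Ug37122 lie right of 0 at 0.31, 1.94 and 0.37, while all squares and triangles lie left of 0.

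Across the whole table, the quasi-likelihood test of edgeR called 0 of the 62900 unigenes that passed its filter on low counts, which is 0%, at a Benjamini-Hochberg adjusted p of 0.05. At an unadjusted p under 0.05 there were 60 higher and 69 lower unigenes, and DESeq2 called 2, with 118 higher and 206 lower at an unadjusted p under 0.05. Of the members, 3 of 7 passed the filter, Ug86066, Ug121384 and the bZIP unigene, and 0 of these 3 were called, from which nothing is read, as the members were chosen on this contrast. Their log2 fold changes were -2.52 (standard error 1.88) for Ug86066, -2.26 (standard error 0.86) for Ug121384 and -2.11 (standard error 1.33) for the bZIP unigene. Without control replicate 2, these values were 1.96, -1.12 and 0.34. In that fit, salt replicate 2 had no control library of its number. The standard errors given are from the fit with condition as the only term, so the difference between replicate numbers enters them. PYL8, Ug37122 and Ug155113 had 38, 39 and 30 reads in all and did not pass.

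Of the same protein family as Ug59417, a second bZIP unigene listed as lower, Unigene131032_All (949 bp), had 2 and 0 reads in salt replicates 1 and 2, against 113 and 0 reads in control replicates 1 and 2. Its control reads thus came from replicate 1, while 90.5% of the control CPM of Ug59417 came from replicate 2. Unigene93351_All (2623 bp), listed as higher, had 10 and 4 reads in the salt libraries and 0 in both control libraries. The TGA unigene Unigene104907_All (1649 bp) belongs to a group of bZIP factors known in Arabidopsis from salicylic acid responses. It had 24 and 4 reads in salt replicates 1 and 2, against 0 and 4 reads in control replicates 1 and 2. The TGA unigene was listed as higher. None of these 3 unigenes passed the filter on low counts. Among the 4 bZIP-type unigenes, the highest library was a control library in the 2 listed as lower and a salt library in the 2 listed as higher. This follows from the listing, which used the same libraries, and nothing is read from it.

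The unigenes of the study's tables with the profile most like that of each member were found by the distance of log2(CPM + 0.1), centred on each unigene, over the 4 libraries, among 116 candidates. For the bZIP unigene, it was the ERF transcription factor Unigene20505_All (distance 0.26), a member of the ethylene response factor family. It had 115 and 412 reads in salt replicates 1 and 2, against 222 and 1993 reads in control replicates 1 and 2, and thus the same order of libraries at a higher level. For Ug86066, it was the GATA factor Unigene137615_All (distance 0.34), with 0 and 18 reads in salt, against 1 and 99 in the control. The second was an auxin efflux carrier, component 2 of the family that moves auxin out of cells, Unigene86727_All (distance 0.48), with 22 and 237 reads in salt, against 32 and 1051 in the control. For PYL8, it was the bHLH factor Unigene138814_All (distance 0.40), with 0 and 2 reads in salt, against 2 and 21 in the control. Ug121384 was nearest to a hypothetical protein, Unigene48447_All (distance 0.41), followed by a leucine-rich repeat receptor-like kinase, Unigene121629_All (distance 0.54), which was also nearest to Ug37122 (distance 0.996). For Ug155113 it was a HOTHEAD protein, Unigene138511_All (distance 0.32), with 0 and 0 reads in salt, against 1 and 25 in the control. Further neighbours were 6-phosphofructokinase 6 (Unigene15973_All) for the bZIP unigene, Mut11 (Unigene124037_All) for PYL8, a tubulin beta-7 chain (Unigene139265_All) for Ug155113, and HOTHEAD for Ug37122. Among the members themselves, the bZIP unigene and PYL8 were closest (distance 1.14), and Ug86066 and Ug121384, both MYB factors, were farthest apart (distance 3.81). All these neighbours had been listed as lower on the same libraries. With 4 libraries these distances describe the profiles only, and 5 of the 12 neighbours were among the nearest when 1 CPM was added in place of 0.1. None of these 5 was a neighbour of the bZIP unigene or of Ug86066, and Unigene48447_All was no longer among those of Ug121384.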

How the data were processed

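Libraries were grouped by the titles in the labels. The authors built unigenes from the clean reads with Trinity, without a genome, and deposited raw read counts per unigene, without normalization, and RPKM, which their methods obtain with SOAP. RPKM equalled the counts per kilobase and per 1000000 counted reads, with a largest error of 5e-05. The sources used here do not give the counting rule for read pairs or for reads that match several unigenes, so reads of near-identical MYB or bZIP copies may be divided between unigenes.

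Counts were fitted with edgeR 4.0.16 in R 4.3.3 over all unigenes, with condition as the only term (glmQLFit and glmQLFTest, TMM factors, and filterByExpr at min.count 10 and min.total.count 15). The standard error is the log2 fold change divided by the square root of the F statistic. Alternatives were DESeq2 1.42.0, the replicate number as a second factor, limma 3.58.1 on log2(RPKM + 0.1) or log2(RPKM + 1), library sizes without composition factors, no filter, a stricter one (2 libraries at 1 CPM or above), and fits without 1 library.

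Ratios of 2 libraries have exact (Clopper-Pearson) binomial intervals at 95%. They, the Poisson intervals and the limit of 3 reads cover counting error only. Patterns over all unigenes used those with 20 or more reads. Python 3.11.15, scipy 1.17.1 and pandas 2.3.3 were used for the tables.

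The named unigenes were the 7 members, the 2 nearest unigenes of the study's tables to each member with 20 or more reads in all, and the other bZIP and TGA unigenes. The members and lists were chosen with earlier results of these data known. Sequences of the unigenes were not analysed here.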

Additional observations from a re-analysis of the deposited data

How the results depend on the processing

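The count of called unigenes, 0 in edgeR, was 2 in DESeq2 and lay between 0 and 2 when 1 library at a time was left out, the 2 calls arising without control replicate 2. It was 0 under the other alternatives, which were library sizes without composition factors, no filter, the stricter filter, limma with 0.1 or 1 added and the replicate block. At an unadjusted p under 0.05, where edgeR had 60 higher and 69 lower unigenes, there were 398 higher and 1864 lower with no filter and 586 higher and 1572 lower with the replicate block. The labels share the replicate numbers but do not say that the samples are paired, and the main fit has no term for them. Same-numbered libraries were nevertheless alike, as their deviations from the group means correlated with r = 0.652 over 44929 unigenes. The standard errors of the main fit therefore include the difference between replicate numbers. With the replicate block, the smallest adjusted p of the edgeR test over all unigenes was 0.139. The log2 fold changes were then -2.01 (standard error 0.55) for Ug86066, -2.03 (standard error 0.73) for Ug121384 and -1.83 (standard error 0.40) for the bZIP unigene. These standard errors were smaller than without the block, but they rest on 2 pairs and are a description, as the members were chosen on this contrast.

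Of the members' log2 fold changes under the alternatives, 37 moved by less than the spread between replicates, 3 moved by more with the same sign and 2 reversed. For PYL8, Ug37122 and Ug155113, the reference was the fit with no filter. These members had no value without control replicate 2, which held 73.7%, 82.1% and 93.3% of their reads. A move of Ug86066 from -2.52 to -5.22, without salt replicate 2, was among the 37. The count of 37 is therefore no measure of stability. Both reversals were without control replicate 2, 1.96 for Ug86066 and 0.34 for the bZIP unigene Ug59417. In that fit, salt replicate 2 had no control library of its number. With each library left out, Ug86066 ranged from -5.22 to 1.96, Ug59417 from -3.80 to 0.34 and Ug121384 from -2.87 to -1.12. For Ug121384, limma with 1 added gave -0.97. The number of members whose mean RPKM was lower in salt, 6 with all libraries, lay between 3 and 6 with each library left out, an alternative chosen after seeing the data, with 3 without control replicate 2. In that alternative the log2 ratios of mean RPKM of Ug86066, Ug37122 and Ug59417 reversed to 1.94, 0.37 and 0.31. That of PYL8 (Ug59747) was -0.13 there, against -2.43 with all libraries, and that of Ug121384 was -1.12. As control replicate 2 was the highest library in all 6 members, leaving it out could only shrink or reverse these differences. The cause was not tested. The ratios within replicate numbers and the shares of control CPM kept their values within the counting interval with TMM library sizes and, for the ratios, with 1 read added. Depth limits PYL8, Ug37122 and Ug155113 most, with 30 to 39 reads each.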
